A study of Mus musculus with 6 samples.

Results

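Cortical bone tubes, the marrow-free shafts of mouse tibia and femur that hold osteocytes in their own matrix, were cultured with or without parathyroid hormone (PTH), and 10 genes known for cartilage were read from the arrays. The genes were the transcription factors *Sox5*, *Sox6* and *Sox9* and the matrix genes *Acan*, *Comp*, *Chad*, *Matn2*, *Matn3*, *Hapln1* and *Cilp*. They were taken by symbol, with earlier results of these arrays known, and were 10 of 31508 gene symbols on the array. Each was followed by every probe listed under its symbol, under *Agc1*, the older symbol of *Acan*, or under an older name in the RefSeq gene table. This gave 24 probes by symbol and 1 more, A730017D01Rik, a RIKEN clone name that the table gives for *Sox5*. The strain in the labels was C57BL6 and the age of the mice 3 months, in both groups. All bones were flushed, digested with collagenase and trypsin, and kept overnight in medium with serum before the experiment. The 3 control arrays came from tubes left untreated for 24 hours, and the 3 PTH arrays from tubes given 250 nM of the PTH 1-34 fragment for 24 hours. Each RNA preparation combined bones from more than 1 mouse. The labels do not say whether the replicates of a group were separate cultures, so p-values measure the spread between these arrays, which may be technical.

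Cartilage is built by chondrocytes under the control of SOX9, a transcription factor that switches on the collagen and proteoglycan genes of the tissue together with SOX5 and SOX6. Aggrecan, the product of *Acan*, carries chondroitin sulfate chains that hold water, and link protein, the product of *Hapln1*, ties it to hyaluronan. COMP, the matrilins, chondroadherin and CILP are smaller proteins that connect collagen fibrils, proteoglycans and cells. In long bones these genes are best known from the growth plate and the joint surface, which the study cut away, and several of them are also made in tendon or by cells of the osteoblast lineage.

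The deposited value was the linear signal intensity of a probe, with no normalization and no background subtraction, beside a detection p-value against the negative controls of the same array. A probe was taken as above background on an array where that p was under 0.05, and was tested where this held on at least 3 of the 6 arrays. The median signal of an array lay between 111.3 and 128.9, and between 34.2% and 38.4% of the 45281 probes were above background. The lowest signal above background lay between 119 and 139, depending on the array. For comparison between arrays the signals were background corrected, given an offset of 16, brought to 1 common distribution by quantile normalization and expressed as log2. Differences below are PTH minus control on that scale, tested with limma and adjusted over all 16214 probes tested, and a probe was called at an adjusted p under 0.05 and a fold change of at least 1.5. Levels of different probes are not comparable on this array.

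Most of the cartilage probes were at background in both groups. Of the 25 probes, 14 were above background on no array, 4 on 1 or 2 arrays, and 7 were tested, which was 28.0% against 35.8% of all probes. The tested probes belonged to *Sox5*, *Sox9*, *Acan*, *Comp* and *Chad*. No probe of *Sox6*, *Matn2*, *Matn3*, *Hapln1* or *Cilp* was above background on any array. Their 12 probes had signals from 92.2 to 130.3, so for these 5 genes a difference between groups was not detectable at this signal. The bright *Sox9* probe stood clear of background on all 6 arrays, as the plot of signals against background shows.

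**Figure D1:**
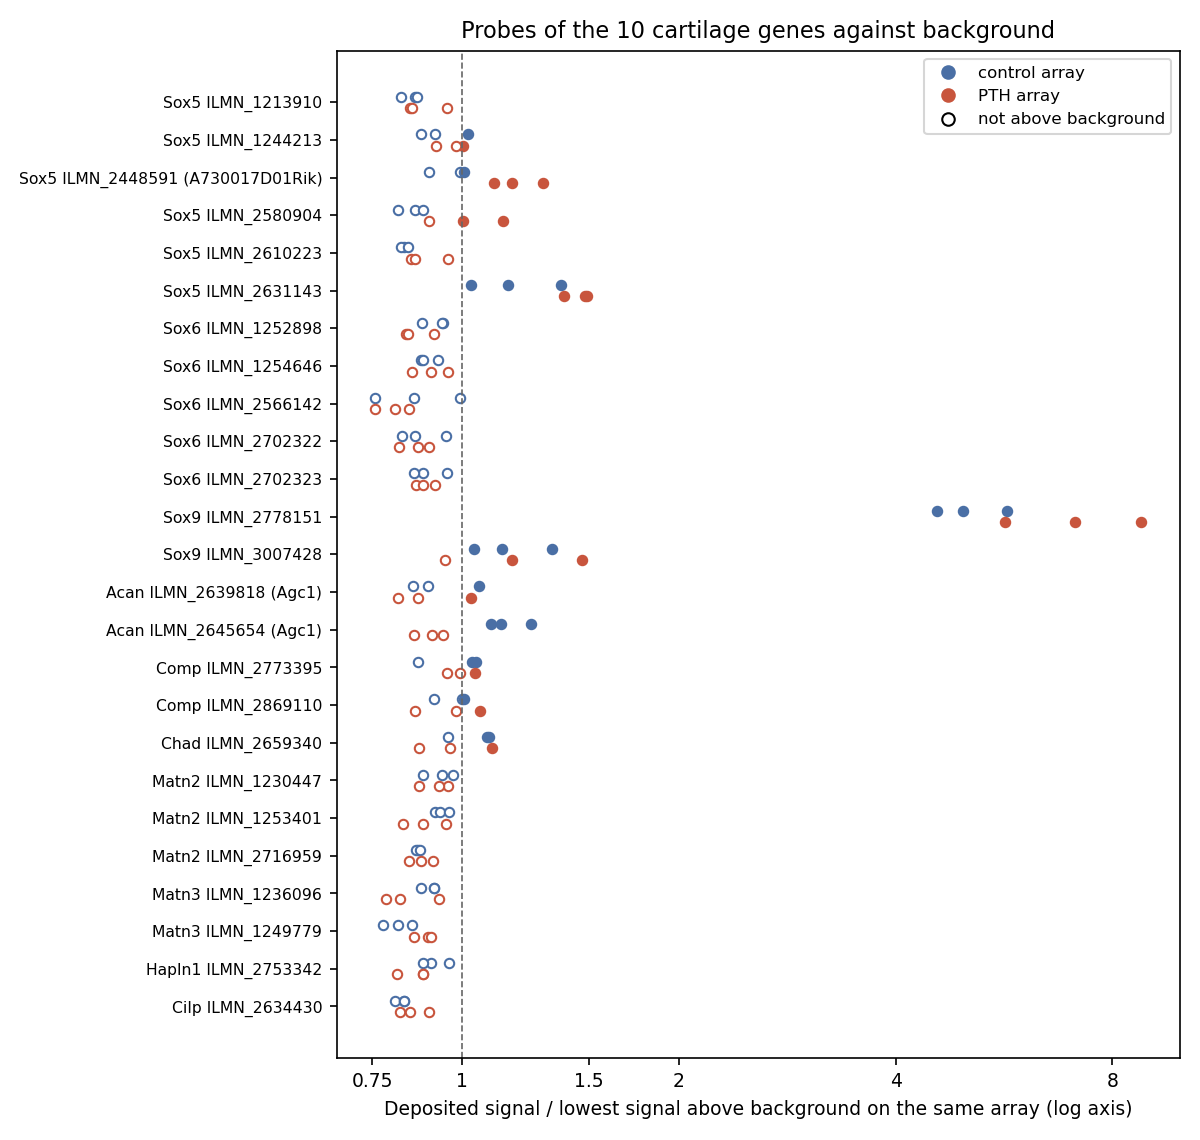
Deposited signal of each of the 25 probes on each array, divided by the lowest signal above background on the same array (log axis). Filled points were above background and open points were not; blue is control and red is PTH. One probe of *Sox9* lies far to the right, and the probes of *Sox6*, *Matn2*, *Matn3*, *Hapln1* and *Cilp* have open points only.

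*Sox9*, the main transcription factor of the chondrocyte lineage, was the one gene of the 10 well above background in the bone tubes. Its brighter probe, ILMN_2778151, had signals of 580, 689 and 678 on the control arrays. On the PTH arrays the same probe read 696, 876 and 1181. The normalized log2 signal was 9.20 ± 0.03 (SD, n = 3) in control tubes and 9.53 ± 0.03 (SD, n = 3) with PTH. The groups did not overlap, PTH being the higher, and the difference was 0.32 (SE 0.11), or 1.25-fold, with a 95% interval of 0.06 to 0.58 on the log2 scale. The difference did not pass the adjustment (limma adjusted p = 0.233). With the methods' t-test the adjusted p was 0.0373, with the fold change still under the 1.5-fold minimum. The dimmer probe, ILMN_3007428, did not show it. Its normalized log2 signals were 5.35, 5.70 and 6.06 in control tubes and 5.99, 4.83 and 6.14 with PTH. The groups of that probe overlapped, and 1 PTH array was not above background. Its difference was -0.05 (SE 0.35, limma adjusted p = 0.964), with a 95% interval from 0.551-fold to 1.68-fold.

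*Sox5* and *Sox6* encode the SOXD proteins, which bind beside SOX9 in chondrocytes. The brightest *Sox5* probe, ILMN_2631143, was above background on all 6 arrays. Its normalized log2 signals were 5.28, 6.42 and 5.56 in control tubes and 6.60, 6.51 and 6.19 with PTH. Control replicate 2 lay inside the range of the PTH arrays, so the groups overlapped. The difference of 0.68 (SE 0.28) missed the threshold, with a limma adjusted p of 0.323. Without control replicate 2 it was 1.02 (limma adjusted p = 0.0872), without control replicate 1 it was 0.45 (limma adjusted p = 0.594), and without background correction it was 0.27.

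The probe listed as A730017D01Rik had signals of 126, 125 and 119 on the control arrays, of which 1 was above background. It had signals of 136, 145 and 174 on the PTH arrays, all above background. The normalized log2 signal was 4.90 ± 0.25 (SD, n = 3) in control tubes and 5.75 ± 0.02 (SD, n = 3) with PTH, a difference of 0.86 (SE 0.15) that was called (limma adjusted p = 0.0362). The difference is taken against a group in which 2 of 3 arrays were at background, and the probe entered the test mainly through its PTH arrays. With no detection filter it was not called (limma adjusted p = 0.0607). No fit with 1 array left out called it, with limma adjusted p from 0.0851 to 0.116, and 1 of 7 other settings did. Whether this probe and those listed as *Sox5* read the same transcript could not be checked, since probe sequences were not used here. Of the other 4 *Sox5* probes, 2 were above background on no array and 2 on 2 arrays. One of the latter, ILMN_2580904, was above background on 2 PTH arrays and on no control array, with signals of 109, 113 and 105 in control tubes and 110.1, 124 and 153 with PTH. All 5 *Sox6* probes were at background.

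*Acan*, listed as *Agc1*, was the only gene of the 10 that was called by its brightest tested probe, and it was lower with PTH. The probe ILMN_2645654 had signals of 139, 157 and 148 on the control arrays, all above background. On the PTH arrays it read 115, 106 and 122, none of them above background. The normalized log2 signal fell from 5.72 ± 0.10 (SD, n = 3) to 4.68 ± 0.15 (SD, n = 3). The fitted difference was -1.04 (SE 0.13, limma adjusted p = 0.0116). The PTH arrays were below detection, so the control mean was also set against the dimmest detected probes of the PTH arrays. It was 1.58-fold above them. This value holds for this background correction and makes no allowance for the spread between arrays.

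The *Acan* probe entered the test through its 3 control arrays alone, the group in which it was higher. It was also called with no detection filter (limma adjusted p = 0.0153). The call rested on a weak signal. With 1 array left out and the same probes tested, the difference stayed between -1.16 and -0.96 and the limma adjusted p between 0.0307 and 0.0571, above 0.05 without control replicate 2, control replicate 3, PTH replicate 2 or PTH replicate 3. Without background correction, or with an offset of 50, the adjusted p was 0.0228 and 0.0144 (limma) while the fold change was 1.28 and 1.46, under the 1.5-fold minimum, and with the methods' t-test the adjusted p was 0.0625. The second *Acan* probe, ILMN_2639818, was above background on 1 control and 1 PTH array and was not tested. In RNA of whole bone, fewer cells of a type and less RNA per cell cannot be told apart.

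**Figure D2:**
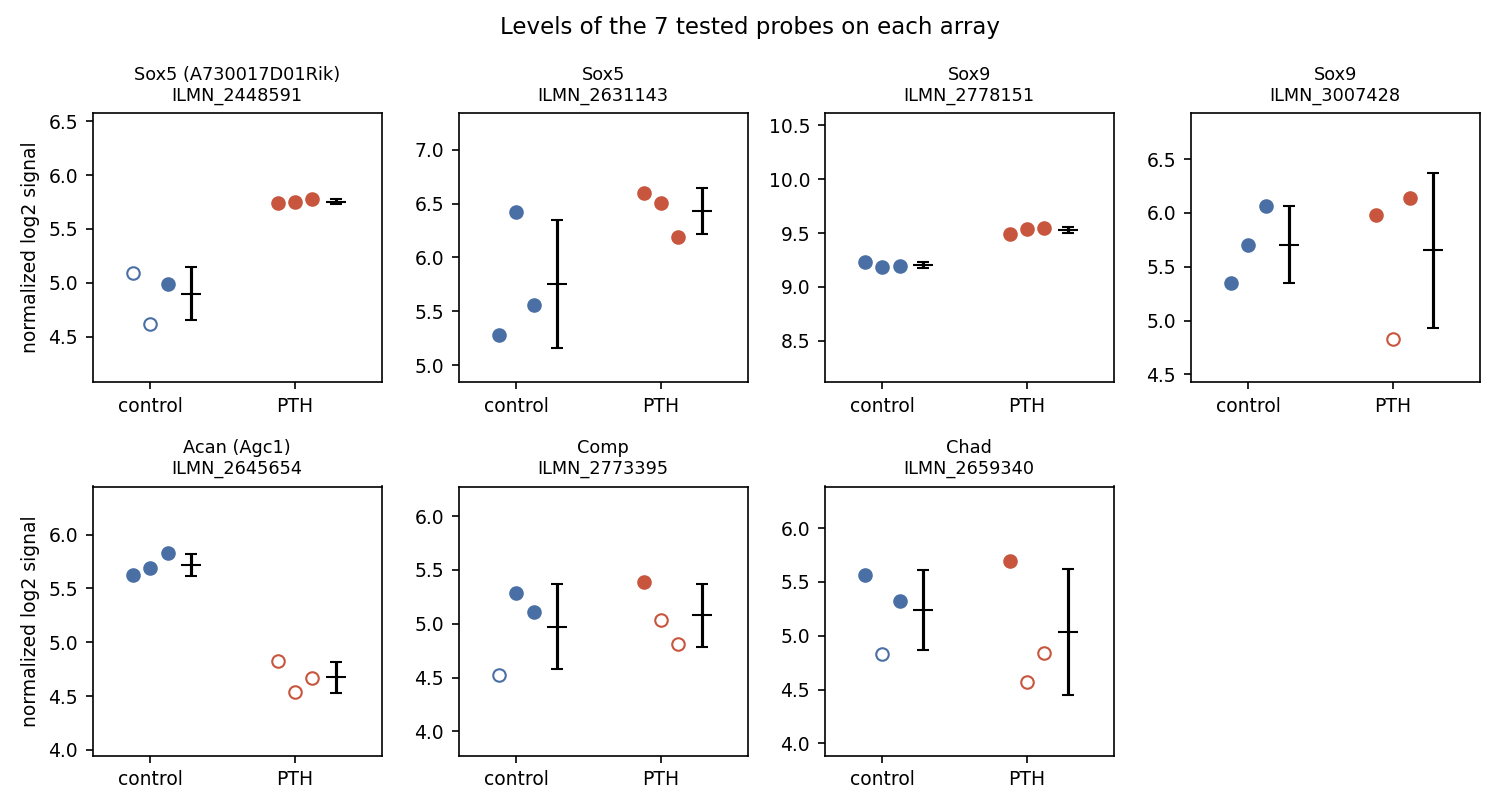
Normalized log2 signal of the 7 tested probes on each array, with 3 control arrays in blue and 3 PTH arrays in red; open points were not above background, and bars give the mean and SD. The panels share a span of 2.5 log2 units with different starting points. The *Acan* and A730017D01Rik groups and those of the brighter *Sox9* probe do not overlap, and those of the other 4 probes do.

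*Comp* and *Chad*, whose proteins bind collagen fibrils and cells, were at the edge of detection. The brighter *Comp* probe, ILMN_2773395, had signals of 110.2, 145 and 123 in control tubes and 128, 123 and 128 with PTH. It was above background on 2 control arrays and 1 PTH array, and the groups overlapped. Its difference was 0.10 (SE 0.23, limma adjusted p = 0.885), with a 95% interval from 0.742-fold to 1.56-fold. The second *Comp* probe was above background on 1 array of each group. The single *Chad* probe, ILMN_2659340, read 137, 133 and 129.1 in control tubes and 135, 108 and 129.3 with PTH. It too was above background on 2 control arrays and 1 PTH array, with overlapping groups. Its difference was -0.21 (SE 0.31, limma adjusted p = 0.823), with a 95% interval from 0.530-fold to 1.42-fold. The intervals of both genes include changes in either direction.

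The remaining matrix genes gave no level above background. *Matn2* and *Matn3* encode matrilins, adaptor proteins that bridge collagens and proteoglycans, and had 3 and 2 probes. *Hapln1*, the link protein, had 1 probe, with signals of 115, 122 and 114 in control tubes and 108, 100.4 and 119 with PTH. *Cilp*, a matrix protein of the middle layer of articular cartilage, had 1 probe, with signals of 102, 115 and 98.4 in control tubes and 100.4, 105 and 121 with PTH. None of these signals was above the background of its own array.

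Counted by the brightest tested probe of each gene, 1 of the 5 tested genes was called, against 208 of 11976 genes tested on the array, or 1.74%. The call was in the lower direction, in which 1.06% of all genes were called. Counted by probe, 2 of 7 were called, the *Acan* probe and A730017D01Rik, against 1.63% of all probes tested. The *Acan* probe entered the test through its control arrays alone and A730017D01Rik mainly through its PTH arrays. Counts in this paragraph that include them are therefore a description. At an unadjusted p under 0.05 (limma) the count was 3 of 5, *Acan*, *Sox5* and *Sox9*, against 14.9% of all genes tested. For 2 of the 5 the groups were apart, *Acan* with PTH below and *Sox9* with PTH above, against 21.9% of all genes tested (10.8% below and 11.1% above). The median difference was 0.10 over the 5 genes and 0.01 over all genes tested. For 1 gene alone, 3 arrays a group allow an exact permutation p (two-sided) of 0.1 at the smallest.

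Collagens and other defining genes of cartilage were examined beside the 10, from a list of 16 with no gene in common. None of the list was called (limma). At an unadjusted p under 0.05 there were 2 of 5 tested genes, *Col2a1* and *Col10a1*, against 14.9% of all genes tested. *Col2a1*, the main fibrillar collagen of cartilage, was above background on all 6 arrays, with normalized log2 signals of 7.63, 7.68 and 7.68 in control tubes and 7.34, 7.26 and 6.96 with PTH. Its difference was -0.47 (SE 0.14, limma adjusted p = 0.167). Its other 2 tested probes gave differences of -0.30 and -0.24 and did not pass. *Col10a1*, the collagen of hypertrophic chondrocytes, was above background on 3 control arrays and 1 PTH array, with normalized log2 signals of 6.11, 6.08 and 5.58 against 4.82, 4.93 and 5.37. Its difference was -0.88 (SE 0.20, limma adjusted p = 0.091). The *Col10a1* probe entered the test mainly through its control arrays, the group in which it was higher. Under other processing of all 6 arrays its difference ranged from -0.88 to -0.30. By the brightest tested probe the groups did not overlap for 2 of the 5 tested genes, *Col2a1* and *Col10a1*, against 21.9% of all genes tested. In both PTH was the lower. Of the other 2 *Col2a1* probes, the one at -0.30 also had PTH below control, and the groups of the one at -0.24 overlapped.

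*Prg4*, the lubricin of joint surfaces, was above background on all 6 arrays with a difference of 0.15 (limma adjusted p = 0.69). *Ihh*, the Indian hedgehog signal of the growth plate, and *Snorc*, a chondrocyte membrane proteoglycan listed as 3110079O15Rik, had differences of 0.10 and 0.14 (limma adjusted p = 0.903 and 0.888). The other 11 genes were not tested. *Col9a3*, *Matn1*, *Epyc*, *Ucma*, *Cnmd*, *Cytl1* and *Chadl* were above background on no array, and *Col9a1*, *Col9a2*, *Col11a1* and *Col11a2* on 2 arrays each. The summed level of the list, in linear normalized signal, ranged from 1697 to 1980 in control tubes and from 1747 to 1997 with PTH. *Prg4* alone made up 64.6% to 71.3% of that sum, which therefore says little of *Col2a1* or *Col10a1*. Sums here and below add 1 probe of every listed gene on the array, also those at background. Since levels of different probes are not comparable, the sums and shares follow the brightest probes and are not amounts of RNA.

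**Figure D3:**
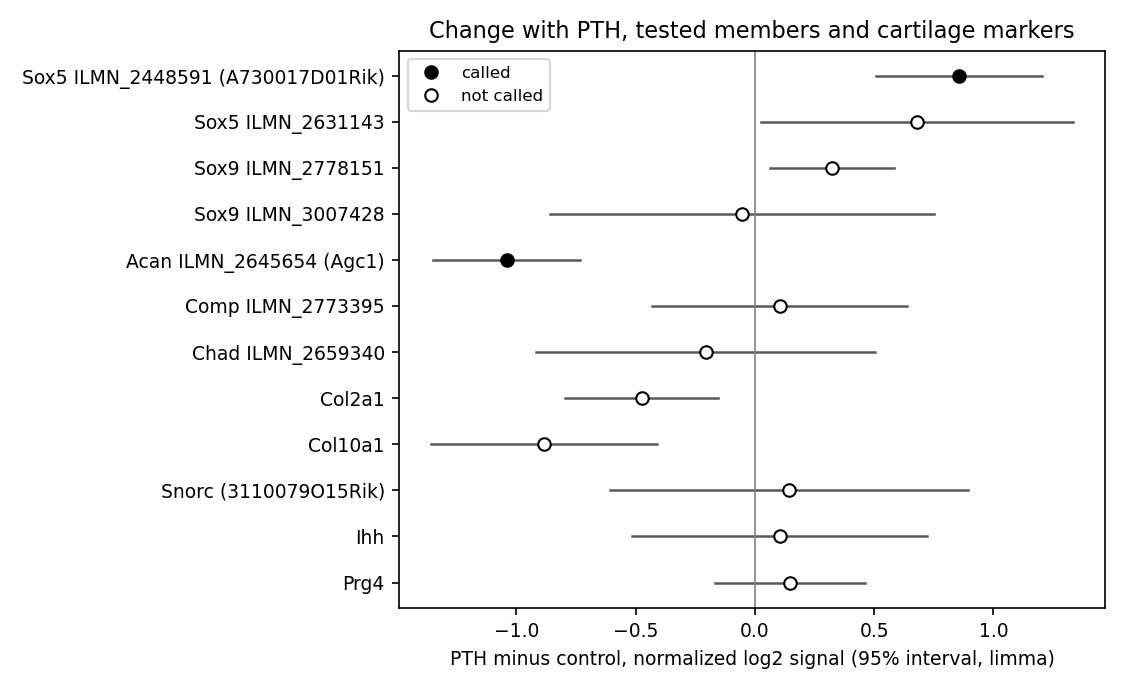
Difference between PTH and control in normalized log2 signal for the 7 tested probes of the 10 genes and for the 5 tested genes of the cartilage marker list, with 95% intervals from limma. Filled points were called. *Acan* at -1.04 and A730017D01Rik at 0.86 are filled, and the intervals of *Comp*, *Chad*, *Snorc*, *Ihh*, *Prg4* and the dimmer *Sox9* probe cross 0.

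*Has1* and *Adamts4*, from a list of 18 genes that build, bind or cut hyaluronan and aggrecan, were higher with PTH. Of 12 tested genes of that list only these 2 were called, against 1.74% of all genes tested. The median difference was 0.33 against 0.01 over all genes tested. *Has1*, which makes hyaluronan at the cell membrane, rose from normalized log2 signals of 5.58, 5.58 and 5.44 to 7.20, 7.14 and 7.24. This was a difference of 1.66 (SE 0.12, limma adjusted p = 0.000689), or 3.16-fold, and it was called in each of the 6 fits with 1 array left out. Without background correction it was still called, at 1.71-fold. A second *Has1* probe was above background on no array. *Adamts4*, an aggrecanase, rose from 7.17, 7.25 and 7.08 to 8.03, 8.14 and 8.27, a difference of 0.98 (SE 0.13), or 1.97-fold, at a limma adjusted p of 0.0118. In fits without 1 array and with the tested probes kept, its limma adjusted p ranged from 0.0344 to 0.0668, and it was above 0.05 without any 1 of the control arrays or without PTH replicate 2.

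The rest of that list did not pass. *Adamts5*, the other main aggrecanase of cartilage, had a difference of 0.42 (SE 0.24, limma adjusted p = 0.48) with overlapping groups. *Has2* had a difference of 0.45 (limma adjusted p = 0.206). *Vcan*, the aggrecan relative versican, listed as *Cspg2*, had a difference of 0.45 (limma adjusted p = 0.198). *Adamts1* had a difference of 0.69 (limma adjusted p = 0.197). *Cd44*, the hyaluronan receptor, had a difference of -0.38 (limma adjusted p = 0.176) and *Adamts9*, a further aggrecanase, one of -0.61 (limma adjusted p = 0.113). The groups did not overlap for 8 of the 12 tested genes, against 21.9% of all genes tested. PTH was the higher for *Has1*, *Adamts4*, *Has2*, *Vcan* and *Adamts1*, and the lower for *Cd44*, *Adamts9* and *Mmp13*.

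**Figure D4:**
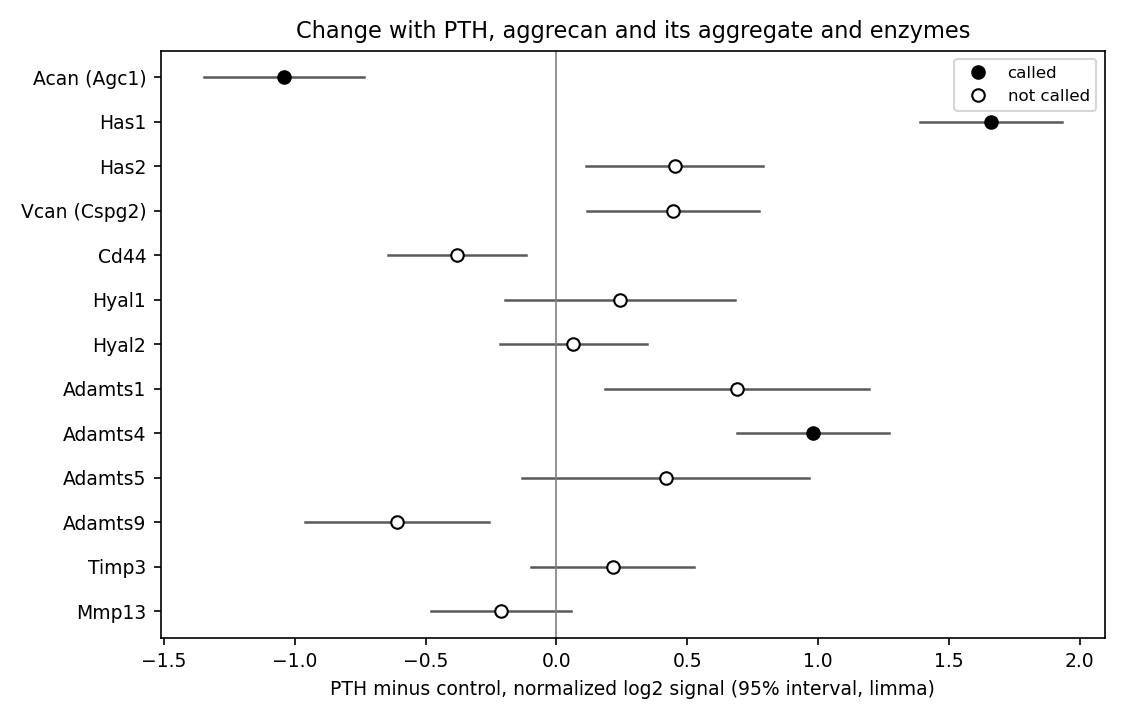
Difference between PTH and control in normalized log2 signal for *Acan* and for the 12 tested genes of the hyaluronan and aggrecan list, with 95% intervals from limma. Filled points were called: *Acan* lies at -1.04, *Adamts4* at 0.98 and *Has1* at 1.66.

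Enzymes that make the chondroitin sulfate chains of aggrecan were mostly detected. Of 15 tested genes of that list, 1 was called, against 1.74% of all genes tested, and the median difference was -0.24. *Csgalnact1*, which starts the chondroitin chain and is listed as 4732435N03Rik, rose from normalized log2 signals of 5.50, 5.95 and 5.63 to 7.22, 7.24 and 7.02. Its difference was 1.47 (SE 0.16, limma adjusted p = 0.00564), or 2.77-fold, and it was called in each of the 6 fits with 1 array left out. It was 1.62-fold without background correction, where it was called, and with the methods' t-test it was not called (adjusted p = 0.0654). Differences were below 0 for 11 of the 15 genes, none of which was called.

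Among 20 regulators of chondrocytes, 12 were tested and 2 were called, both lower with PTH, against 1.74% of all genes tested. *Pth1r*, the PTH receptor, had a difference of -1.37 (SE 0.15, limma adjusted p = 0.00642). It was called in each of the 6 fits with 1 array left out but not with the methods' t-test (adjusted p = 0.0654). *Mef2c*, a transcription factor of hypertrophic chondrocytes that osteocytes also use, had a difference of -0.97 (SE 0.12, limma adjusted p = 0.00993). The *Mef2c* call was lost without control replicate 1 or control replicate 2 and under median scaling, where its limma adjusted p was 0.244. Of the relatives of the 10 genes (other SOX factors, matrilins, link proteins, thrombospondins and lecticans), 11 of 23 were tested and none was called (limma). At an unadjusted p under 0.05 there were 4, against 14.9% of all genes tested. The median difference of the 11 was 0.02. *Sox8* and *Sox10*, the other SOXE genes, and *Sox13*, the third SOXD gene, were not tested, and the last 2 were above background on no array.

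Markers of other cells were read on the same arrays. The osteocyte markers *Dmp1*, *Mepe* and *Phex* were above background on all 6 arrays, *Sost* on 3 control arrays and 1 PTH array, and *Fgf23* on none. The summed normalized signal of that list was 18220 to 19200 in control tubes and 11240 to 12220 with PTH, of which *Cd44* made up 24.8% to 33.8%. *Ibsp*, another bright gene of the list, had a mean normalized log2 signal of 12.50 in control tubes and 10.49 with PTH. The sum follows such bright probes and is not an amount of osteocyte RNA. Of the 8 tested genes of the list 2 were called, *Mepe* and *Ibsp*, both lower, against 1.74% of all genes tested (1.06% lower). Of the 8, 7 had differences below 0, where the median over all genes tested was 0.01. *Pdpn*, a membrane protein of early osteocytes, had a difference of 0.70 (limma adjusted p = 0.0544). With 1 array left out and the same probes tested, *Ibsp* was called in 6 of 6 fits and *Mepe* in 1 of 6. Of the periosteum and fibroblast markers 2 of 9 tested were called, *Col3a1* and *Dcn*, both higher, against 1.74% of all genes tested. Differences were above 0 for 6 of the 9 and below 0 for *Ly6a* (-0.28), *Thy1* (-0.32) and *Cd34* (-0.05), and the summed signal was 4610 to 4833 in control tubes and 6449 to 6848 with PTH, of which *Dcn* made up 27.7% to 36.7%. Neither call, made by the brightest tested probe, held in most fits with 1 array left out (*Col3a1* in 1 of 6, *Dcn* in 0 of 6). A dimmer *Dcn* probe, ILMN_2596346, was also called, with a difference of 1.15 (limma adjusted p = 0.00947). A dimmer *Col3a1* probe, ILMN_2683958, was not called, with a difference of 0.46 (limma adjusted p = 0.118). Of the tendon markers 5 of 8 were tested and none was called by its brightest tested probe (limma). At an unadjusted p under 0.05 there was 1, against 14.9% of all genes tested. A dimmer *Tnc* probe, ILMN_2454497, was called higher, with a difference of 0.79 (SE 0.14, limma adjusted p = 0.035). It was above background on 1 control array and 3 PTH arrays. The brightest *Tnc* probe had a difference of -0.16 (limma adjusted p = 0.614). The summed signal of the tendon list was 10740 to 11990 in control tubes and 9883 to 10600 with PTH, of which *Tnc* made up 71.7% to 75.9%. The tendon markers *Tnmd* and *Thbs4* were not tested, while *Scx* was above background on all 6 arrays. Of 10 skeletal muscle markers 8 were above background on no array, and neither of the other 2 was called (limma, 1 at an unadjusted p under 0.05). The summed signal of the 10 was 288 to 295 in control tubes and 261 to 265 with PTH. It includes the 8 genes at background and is not a measure of muscle RNA. The part of these cells in the values of *Acan* and *Sox9* was not tested.

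The genes nearest to *Acan* over the 6 arrays were *Phlda1*, *Nnmt* and the transcript listed as 2310022B05Rik. Nearness was the root mean square difference of log2 profiles after each was centred on its own mean, and it was 0.087, 0.088 and 0.097 for the 3 genes. All 3 were above background on all 6 arrays. Their differences of -1.08, -0.995 and -1.03 were fixed by choosing them for likeness to *Acan*, whose 3 PTH values were not above background, and are a description.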

How the data were processed

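RNA of the 6 samples was hybridized by the authors to Illumina mouse bead arrays and read in GenomeStudio, whose version is not given in the sources used here. The deposited table gives 1 intensity per probe and array on the linear scale, before the authors' quantile normalization, and next to it a detection p-value. Samples were grouped by their labels. All per-sample columns were used. Normexp background correction from the detection p-values, the offset of 16, quantile normalization and log2 were computed with limma 3.58.1 under R 4.3.3 (neqc), followed by lmFit, eBayes and Benjamini-Hochberg adjustment. A gene was counted by its brightest tested probe, and every probe of the 10 genes was given. Older symbols were taken from the RefSeq table of GRCm38.p6 where 1 gene alone carried them. The members and lists were chosen with earlier results of these data known. Named genes were the 10 members, called genes of the lists, cartilage markers above background on at least 3 arrays, and the 3 profiles nearest to the called member with the largest change. Others were added after their values were seen. The procedure was tested on simulated data. Alternatives were other background corrections, scalings, filters and probe rules, the replicate block, the methods' t-test, and each array left out. No slide is named, so slides were not examined. Array number limits the precision.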

Additional observations from a re-analysis of the deposited data

How the results depend on the processing

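The single call among the 10 genes, *Acan*, was a call under median scaling, cyclic loess and no detection filter. The count of called genes among the 10 was 0 (limma) under quantile normalization alone, an offset of 50 and the replicate block, where 3 of 5 were at an unadjusted p under 0.05, and 0 under detection p under 0.01 on all 6 arrays, which tested 1 of the 10 genes, *Sox9*. It was 0 with the methods' t-test, by which *Sox9* passed the adjustment but not the 1.5-fold minimum and 2 of 5 were at its unadjusted threshold, and 2 when any tested probe counted. With 1 array left out it was 0 to 1, also with the tested probes kept, an alternative chosen after seeing the data; leaving out a control array otherwise removed the *Acan* probe from the test. All genes called were 104 under median scaling, which shifted the median of all genes to 0.12 and made 60.6% of calls higher against 38.9%, 58 with the replicate block, 69 with the methods' t-test (1786 unadjusted) and 50 to 100 with 1 array left out (52 to 80 with probes kept). Related genes called were 9, against 14 with an offset of 50, 5 with the methods' t-test and 4 to 8 with 1 array left out. Whether replicate numbers pair the samples could not be settled. Deviations of same-numbered arrays correlated at 0.07, 0.06 and 0.27, and not every array correlated best with its own number. The replicate 3 arrays correlated with arrays of other numbers in the other group at -0.143 to -0.135. In order of number, 34.8%, 36.3% and 38.4% of probes were above background on control arrays. On PTH arrays it was 34.2%, 36.1% and 38.4%. Under the replicate block the adjusted p was 0.0564 for *Acan*, 0.0854 for A730017D01Rik, 0.0591 for *Adamts4* and 0.0517 for *Mef2c* (limma), so these calls were lost, as were those of *Col3a1* and *Dcn*. *Adamts9* passed (limma adjusted p = 0.0487) with detection on all 6 arrays. Direction changed for the dimmer *Sox9* probe under median scaling (0.011). With 1 array left out it changed for that probe (-0.276 to 0.356), *Chad* (-0.414 to 0.026, or from -0.557 with probes kept), *Comp* (-0.123 to 0.225, or to 0.26 with probes kept), *Snorc* (-0.145 to 0.49) and *Ihh* (-0.076 to 0.396). Signals near background limit every probe of the 10 genes but the brighter *Sox9* probe.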
